A study of Mus musculus with 9 samples.

Results

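Drosha-deleted and Dicer-deleted blood progenitors were pooled and set against control progenitors, to find RNAs that changed when either of the enzymes that make microRNAs was lost. Members were chosen from the sample titles alone, and the 6 deletion arrays and the 3 control arrays make up 9 of the 9 arrays in the series. The Drosha-deleted group (Drosha fl/fl Gt(ROSA)26Sor CreERT2, 3 arrays) and the Dicer-deleted group (Dicer fl/fl Gt(ROSA)26Sor CreERT2, 3 arrays) carried floxed alleles. The control group (Gt(ROSA)26Sor CreERT2, 3 arrays) carried the same tamoxifen-activated Cre at the Rosa26 locus, which is active in most cell types, and the labels give it no floxed allele. Every culture, controls included, held LSK cells sorted from the marrow of female mice, and was kept for 72 h with 250 nM 4OH-tamoxifen, 10 ng/mL IL-3, 10 ng/mL IL-6, 50 ng/mL stem cell factor and 10% serum. The sources used here give neither the age of the mice nor the animals behind each repeat, so p-values measure only the spread between these samples, which may be technical.

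LSK cells lack markers of mature blood lineages, carry Sca1 and cKit, and hold blood stem cells and early progenitors. A microRNA is cut from its primary transcript in the nucleus by Drosha and its partner Dgcr8, and the hairpin is cut again in the cytoplasm by Dicer, encoded by Dicer1. The product is loaded into an Argonaute protein and pairs through its seed with messenger RNAs, which are then translated less or degraded. Loss of either enzyme therefore removes most microRNAs, and Drosha also cuts some hairpins in other RNAs, among them the Dgcr8 message.

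Control replicates 2 and 3 stood apart from the other 7 arrays before any gene was compared. The 14 bright-corner spots, which do not depend on the sample, had median log2 values of 15.36 to 15.56 on the 6 deletion arrays, against 15.50 on control replicate 1, 13.74 on control replicate 2 and 13.87 on control replicate 3. The first principal component of the tested features held 51.6% of the variance, with scores of 0.10 to 0.25 on the deletion arrays and 0.12, -0.65 and -0.58 on control replicates 1 to 3. The scanner file of control replicate 3 came from another slide and scan than the other 8. The scanner file of control replicate 2 correlated with the authors' column of that array at 0.818, against 0.993 or more for the others, and its own bright-corner value was 15.60. Whether that column holds the labelled sample cannot be told from the files, and the controls are counted as 3 because the labels give 3. The scanner file of control replicate 2 had a median signal of 529, against 31.0 to 53.8 for the others. Non-uniform spots made up 19.2% of it, against 0.046% or less, and scanner values with all 9 arrays include it. The control-spot pattern is thus shared by 2 of 3 controls and by no deletion array, so that for those 2 arrays the pattern and the genotype cannot be told apart. Results are therefore given beside a fit with these 2 arrays as a block of their own, in which the comparison rests on control replicate 1, and which was chosen after the data were seen. A p-value with the block sets 1 control array against the 6 deletion arrays, and the spread comes from the other arrays, on the assumption that the lone control varies as they do.

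**Figure D1:**
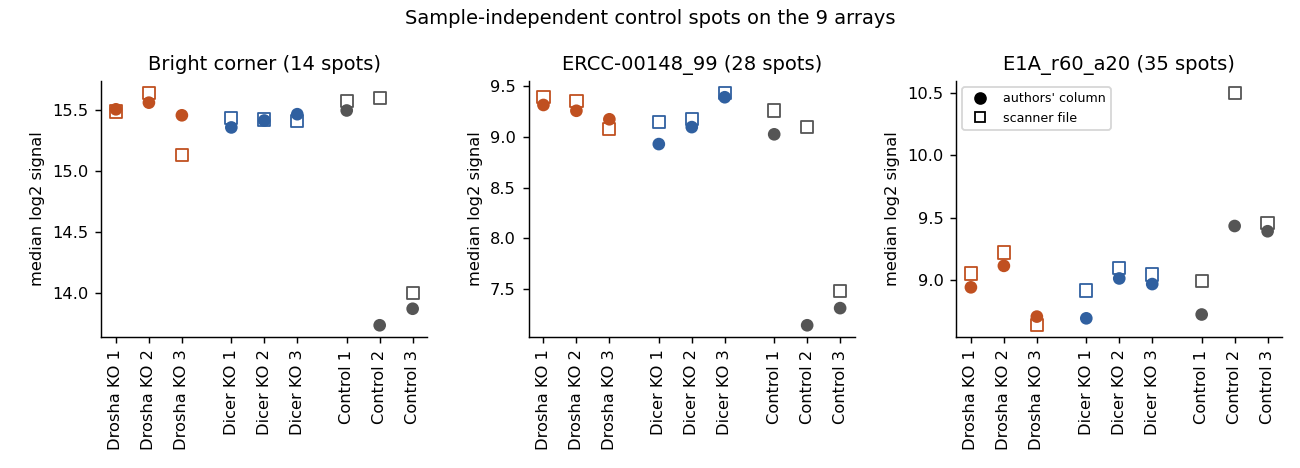
Median log2 signal of 3 kinds of control spot on each array (Drosha-deleted, Dicer-deleted, control), in the authors' column (filled circles) and in the scanner file (open squares). The bright-corner values of the authors' columns lie at 15.36 or above on the 6 deletion arrays, and at 15.50, 13.74 and 13.87 on control replicates 1 to 3.

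Genes that define LSK cells were present. Kit, which encodes the cKit receptor, had log2 values of 12.43 ± 0.48 (SD, n = 6) in the deleted cells and 12.32 ± 0.27 (SD, n = 3) in controls. Ly6a, which encodes Sca1, had 11.36 ± 0.53 (SD, n = 6) in the deleted cells and 11.03 ± 1.11 (SD, n = 3) in controls, and the groups overlapped for both genes. Mpo, a granule enzyme of myeloid progenitors, averaged 17.86 in deleted cells and 17.78 in controls.

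Few features passed the test, which set the mean of the 2 deletions against the controls, so that 1 deletion can carry a call. Of 23052 features (1 probe per gene name, on the authors' log2 scale), 20 were higher in deleted cells and 10 were lower, which is 0.0868% and 0.0434% of those tested (limma, two-sided, adjusted p under 0.05). Of these 30, 29 had the same sign in each deletion and no overlap between the 6 deletion arrays and the 3 controls. All 6 deletion arrays lay above all 3 controls for 1278 features (5.54%) and below them for 909 (3.94%). With control replicates 2 and 3 as a block, 12 were higher (0.0521%) and 19 lower (0.0824%), and 5 of the 30 were called in the same direction. At an unadjusted p under 0.05 there were 6962 features (30.2%) with all 3 controls and 1125 (4.88%) with the block. Without control replicate 2, 2 were higher (0.00868%) and 1 lower (0.00434%), all among the 30.

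Lrmda, which encodes a leucine-rich protein linked to melanocyte differentiation, fell in both deletions. Its log2 values were 6.70, 7.05 and 6.72 in Drosha-deleted cells and 7.0, 6.88 and 7.08 in Dicer-deleted cells, against 8.65, 8.72 and 9.04 in controls. All 6 deletion arrays were low, and the lowest control stood more than 1 log2 unit above the highest of them. The pooled difference was -1.90 ± 0.13 (SE; limma adjusted p = 0.00308), or 3.73-fold, with -1.98 for Drosha deletion and -1.82 for Dicer deletion. Against control replicate 1 it was -1.75 (adjusted p = 0.0165), and without control replicate 2 it was -1.94 (adjusted p = 0.0168). The probe lies at chr14:23403747-23415685 on mm9, plus strand, and spans 2 aligned blocks.

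LOC100046362, a predicted gene that the array file describes as similar to nucleosome binding protein 1, rose in both deletions. Its log2 values were 8.29, 7.95 and 8.37 in Drosha-deleted cells and 8.37, 8.46 and 8.20 in Dicer-deleted cells, against 6.18, 6.66 and 6.30 in controls. The groups did not overlap, and the pooled difference was 1.89 ± 0.15 (SE; limma adjusted p = 0.00308), or 3.72-fold. It was 2.10 against control replicate 1 (adjusted p = 0.0107) and 2.03 without control replicate 2 (adjusted p = 0.0157). Over the other fits, filters and normalizations tried, the difference ran from 0.25 to 2.86. The probe lies at chr4:27794264-27794323 on mm9, minus strand. Whether the signal comes from this predicted copy or from a gene of like sequence cannot be told apart with this probe.

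Fmr1nb, a neighbour of Fmr1 whose human counterpart is known as a testis antigen in tumours, fell to near background in deleted cells. Its log2 values were 5.64, 5.71 and 5.57 in Drosha-deleted cells and 5.73, 5.45 and 5.76 in Dicer-deleted cells, against 7.96, 7.78 and 6.91 in controls. None of the 6 deletion arrays measured it well above background, so the size of the difference is uncertain. A bound on the authors' scale was 3.67-fold lower, and the difference had an adjusted p of 0.0253 in limma. From scanner signals with normexp background the difference was -0.95. Fmr1nb was the 1 called feature that passed the background filter through the controls alone. It could enter the test only by being high there, and the p rests on deletion values near the floor. The bound sets the control mean against the lowest signal of any probe well above background on each deletion array. Where the probe's own value was higher, that value was used, so the bound is not a floor for this probe. With the block its adjusted p was 0.0348, and without control replicate 2 it was 0.193, so that this call was lost there. A second Fmr1nb probe did not pass the background filter.

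Other genes that fell encode surface and signalling proteins. Pdpn encodes podoplanin, a surface glycoprotein that binds the platelet receptor CLEC-2. Its log2 values were 6.24, 6.25 and 6.44 in Drosha-deleted cells and 6.38, 5.71 and 6.28 in Dicer-deleted cells, against 7.83, 8.44 and 7.93 in controls, with no overlap. The pooled difference was -1.85 ± 0.19 (SE; limma adjusted p = 0.0177), and it was -1.61 with the block (adjusted p = 0.154). Rap1gap, which switches off the small GTPase Rap1, had a pooled difference of -1.0 (adjusted p = 0.0311), while the difference was -0.87 for H2-Eb2 (adjusted p = 0.0347), which encodes a beta chain that presents antigens to T cells. Plxnb3, a semaphorin receptor, differed by -0.64 (adjusted p = 0.0454). The noncoding transcripts among the lower features were the clone 1110046J04Rik, at -0.86, and a lincRNA region at chr12:77550684-77551505 on mm9, at -1.57. None of these 6 passed the test with the block, where their differences were -1.61 to -0.61.

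The genes that rose with a gene symbol had no single role. Arl9, of the ARF-like small GTPases, differed by 1.42, Nova1, an RNA-binding splicing regulator of neurons, by 1.33, and Cyp2c37, a cytochrome P450, by 1.25. Zfp951, a zinc finger protein gene, differed by 1.10, Mia, which encodes a secreted cartilage protein, by 0.83, Lcn6, a lipocalin, by 0.79, and Wdr38, a WD repeat protein gene, by 0.69, although a second Wdr38 probe above background differed by -0.33. The adjusted p of these 7 genes was 0.042 to 0.0455 with all 3 controls, and none passed with the block, where each stayed positive. For Nova1 the values were 9.08, 9.11 and 8.97 in Drosha-deleted cells and 8.96, 9.02 and 8.55 in Dicer-deleted cells, against 8.05, 7.44 and 7.36 in controls. Control replicate 1 was the control nearest to the deletion arrays. Gm10071, described in the file as similar to ribosomal protein L13 and so not separable from the parent gene by this probe, differed by 1.41 (adjusted p = 0.0177), against 1.11 with the block (adjusted p = 0.119).

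**Figure D2:**
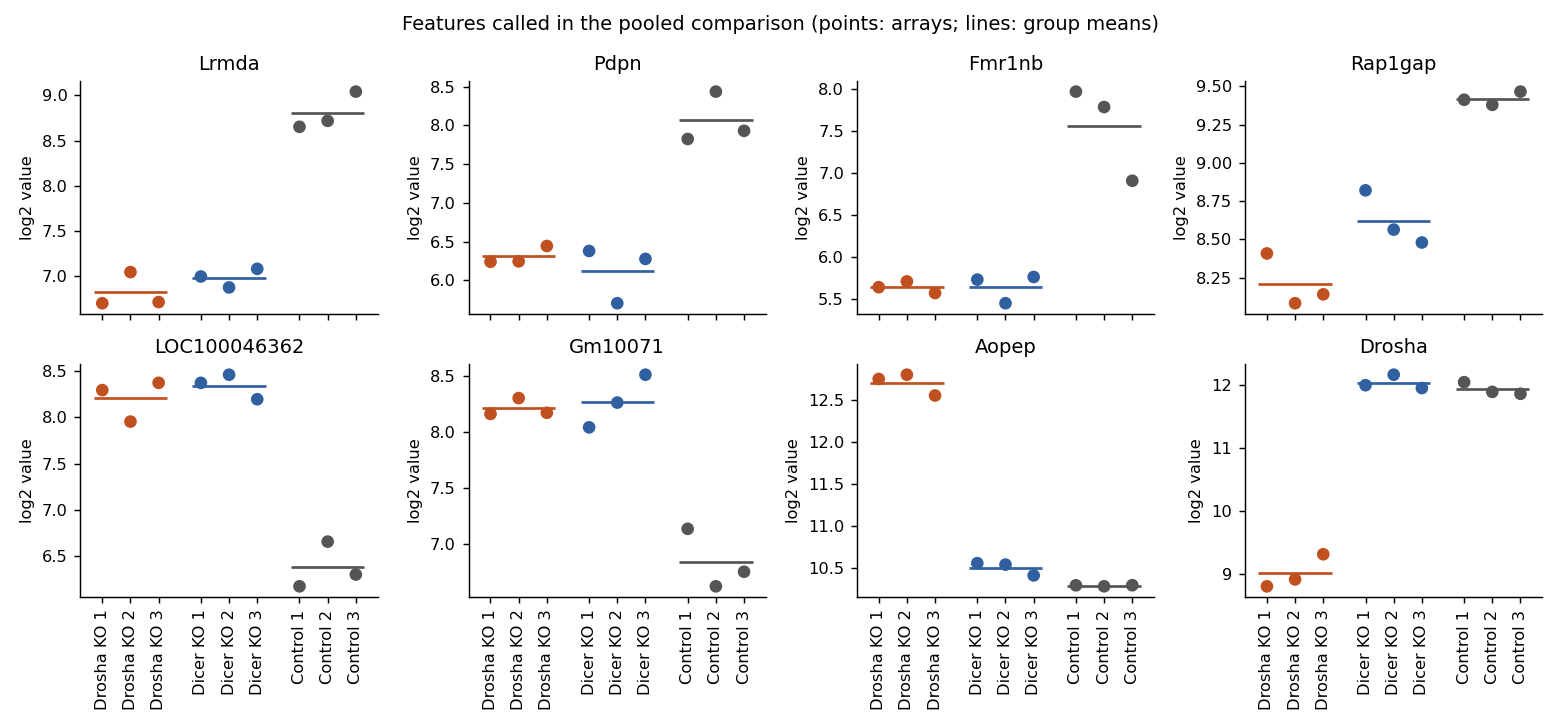
Log2 values of 8 called features on each array (Drosha-deleted, Dicer-deleted, control from left to right), with a line at each group's mean. Lrmda, Pdpn, Fmr1nb and Rap1gap are lower on all 6 deletion arrays, LOC100046362 and Gm10071 are higher on all 6, and Aopep and Drosha differ mainly in the Drosha-deleted group.

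Some calls were carried by 1 deletion. Set against each other, the deletions differed for 13 features, of which 12 were higher in Drosha-deleted cells (0.0521%) and 1 was lower (0.00434%). Drosha had log2 values of 8.81, 8.92 and 9.32 in Drosha-deleted cells and 11.99, 12.15 and 11.94 in Dicer-deleted cells, against 12.04, 11.88 and 11.85 in controls. It was low in the Drosha-deleted cells and at the control level in the Dicer-deleted cells, and its pooled difference of -1.40 (limma adjusted p = 0.0119) averages -2.91 and 0.10. Dicer1, the gene deleted in the other group, had 10.53, 10.00 and 10.80 in Drosha-deleted cells and 8.99, 9.18 and 8.97 in Dicer-deleted cells, against 9.92, 10.50 and 10.44 in controls. Its pooled difference of -0.54 missed the threshold (limma adjusted p = 0.113). The sources used here do not say which exons were deleted, so whether these probes lie in them is unknown.

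The Aopep gene codes for an aminopeptidase and has the microRNA genes Mir27b and Mir24-1 inside it. It had log2 values of 12.75, 12.80 and 12.55 in Drosha-deleted cells and 10.55, 10.54 and 10.41 in Dicer-deleted cells, against 10.29, 10.28 and 10.29 in controls. The Drosha-deleted cells were high, and the Dicer-deleted cells lay just above the controls. The pooled difference of 1.31 (limma adjusted p = 0.00308) averages 2.42 and 0.21, and the deletions differed by 2.20 (Drosha minus Dicer, adjusted p = 0.000124). A second Aopep probe averaged 10.75 in Drosha-deleted cells and 11.22 in Dicer-deleted cells, against 11.16 in controls. A mature microRNA from each of Mir27b and Mir24-1 is shown, which may not be all that Aopep hosts. The sequences are from RefSeq with build GRCm38.p6, 5′ to 3′, with the seed (bases 2 to 8) in capitals.
mmu-miR-27b-3p: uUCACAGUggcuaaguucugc
mmu-miR-24-3p: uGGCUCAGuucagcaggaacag

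Asph, which encodes an aspartyl hydroxylase, was higher in each deletion, with 11.71, 11.30 and 11.0 in Drosha-deleted cells and 10.29, 10.40 and 10.62 in Dicer-deleted cells, against 9.42, 9.50 and 9.80 in controls. The groups did not overlap, and the pooled difference was 1.31 (limma adjusted p = 0.042). Its 2 other probes above background differed by 0.32 and -0.34. Of the 30 called features, 21 had a single probe above background, and for 4 of the other 9 every further such probe had the same sign.

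Most of the called differences were smaller against control replicate 1. The difference was smaller with the block for 24 of the 30. The 6 deletion arrays and control replicate 1 are in both fits, and 29 of the 30 were called on groups that did not overlap, so that a shared sign was given by the choice of features and a call in both fits is no independent support. The 5 called in both fits were Lrmda, Fmr1nb and Drosha, which were lower, and LOC100046362 and Aopep, which were higher. Of the 31 features called with the block, 27 had control replicate 1 outside the range of the other 8 arrays. Thra, a thyroid hormone receptor gene chosen after its values were seen, had 11.74, 11.52 and 11.88 in Drosha-deleted cells and 12.21, 12.24 and 12.02 in Dicer-deleted cells, against 6.69, 11.91 and 11.73 in controls, so that only control replicate 1 was low.

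**Figure D3:**
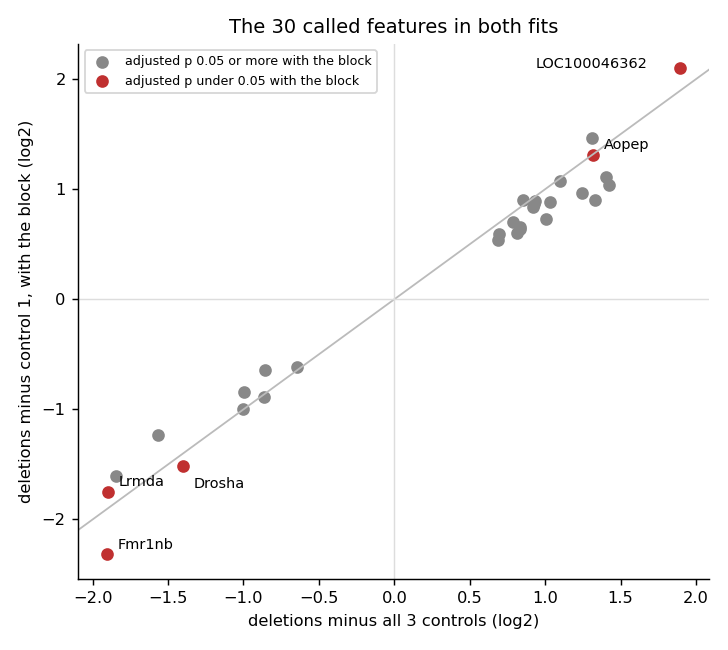
Differences (log2, deletions minus control) of the 30 called features against all 3 controls (x) and against control replicate 1, with the block (y). The diagonal marks equal differences. The features were chosen by their differences on x, which favours smaller ones on y. For 24 of the 30 the difference is smaller with the block, and the 5 in red pass the adjusted threshold in both fits, which share the deletion arrays and control replicate 1.

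Long noncoding RNA regions had a higher median difference than all features with all 3 controls. The 3189 lincRNA regions tested had a median difference of 0.25, against -0.003 over all features, with 0.27 for Drosha deletion and 0.22 for Dicer deletion. Of them, 7 were called higher and 1 lower (0.0868% and 0.0434% of all features). Among the 7, a region at chr4:59264275-59287850 on mm9 passed the background filter through the deletion groups alone. It could enter the test only by being high there. How many regions of the class entered in this way was not counted. All 6 deletion arrays lay above the 3 controls for 11.3% of the class, against 5.54% of all features, and below them for 2.07%, against 3.94%. An example among the called, a region at chr3:93156491-93157100 on mm9, had 7.62, 7.60 and 7.36 in Drosha-deleted cells and 7.43, 7.39 and 7.49 in Dicer-deleted cells, against 6.62, 6.56 and 6.49 in controls. These values are from a single probe. Other probes of this region did not pass the background filter and differed by -0.08 and -0.06. With the block the median of the class was 0.02, against 0.01 over all features, so the higher median was not seen against control replicate 1.

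In the microRNA pathway, 17 of 19 genes were tested, and 1, Drosha, passed the test. Their median difference was 0.06, against -0.003 over all features, and 3 of the 17 lay above all controls in all 6 deletion arrays, against 5.54% of all features. Ago2, the Argonaute that can cut its targets, had 12.75, 12.35 and 12.92 in Drosha-deleted cells and 12.71, 12.83 and 12.77 in Dicer-deleted cells, against 12.29, 11.74 and 12.04 in controls. Its difference of 0.70 missed the threshold (limma adjusted p = 0.0683), as did that of Tarbp2, a Dicer partner, at 0.34 (adjusted p = 0.0847). With the block the difference of Ago2 was 0.43 (adjusted p = 1) and that of Tarbp2 was 0.25. Dgcr8 had 12.23, 12.27 and 12.45 in Drosha-deleted cells and 10.71, 10.97 and 10.48 in Dicer-deleted cells, against 10.42, 10.75 and 10.82 in controls, which is high in 1 deletion and not in the other.

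Among genes reported as microRNA targets, none passed the test with all 3 controls. The seeds of 4 microRNAs whose target lists are described are shown first, from RefSeq with build GRCm38.p6, 5′ to 3′, with bases 2 to 8 in capitals. They are let-7a, which is abundant in many mature tissues, miR-142a, which is specific to blood cells, and miR-34a and miR-221, whose lists had the lowest medians.
mmu-let-7a-5p: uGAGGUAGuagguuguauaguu
mmu-miR-142a-3p: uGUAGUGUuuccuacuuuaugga
mmu-miR-34a-5p: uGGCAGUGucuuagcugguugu
mmu-miR-221-3p: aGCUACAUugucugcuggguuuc
The seeds differ among these 4. Of 120 different genes tested on 15 target lists, 0 passed the adjusted threshold in limma, and 43 had an unadjusted p under 0.05 (35.8%, against 30.2% of all features), or 10 with the block (8.33%, against 4.88%). All 6 deletion arrays lay above the controls for 7 of them (5.83%, against 5.54% of all features) and below for 8 (6.67%, against 3.94%).

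The medians of the target lists were -0.53 to 0.20 with all controls and -0.14 to 0.23 with the block. The lowest was that of the miR-221 list, where 6 of 8 genes were lower with all controls and 5 of 8 with the block. In the list of the miR-17 cluster 11 of 14 were lower with all controls and 6 of 14 with the block. The let-7 list had a median of -0.05 over 13 genes and the miR-142 list one of 0.20 over 11. The miR-142 median was 0.36 for Drosha deletion and -0.003 for Dicer deletion, a difference that was not tested. In the miR-142 list, Arhgap35, which encodes a GTPase-activating protein, had 12.20, 11.99 and 12.15 in Drosha-deleted cells and 11.77, 12.07 and 11.51 in Dicer-deleted cells, against 11.34, 11.30 and 11.40 in controls. All 6 deletion arrays were above the controls, and the difference was 0.60 (limma adjusted p = 0.0651) and 0.61 with the block. Tgfbr1, a TGF-beta receptor on both lists, differed by 0.55 (adjusted p = 0.0811). Cfl2, an actin-severing protein gene, averaged 11.24 in Drosha-deleted cells and 9.54 in Dicer-deleted cells, against 9.55 in controls.

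Hmga2, a chromatin protein gene and a known let-7 target, named here after its values were seen, had 9.11, 8.81 and 9.10 in Drosha-deleted cells and 9.05, 9.01 and 8.56 in Dicer-deleted cells, against 7.27, 8.82 and 8.69 in controls. It overlapped control replicates 2 and 3 and stood above control replicate 1. Its difference was 0.68 with all controls (limma adjusted p = 0.185) and 1.67 with the block (adjusted p = 0.0384), where it was the 1 target-list gene called. Myc, also a let-7 target, differed by -0.69 with all controls (adjusted p = 0.112) and by 0.03 with the block.

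**Figure D4:**
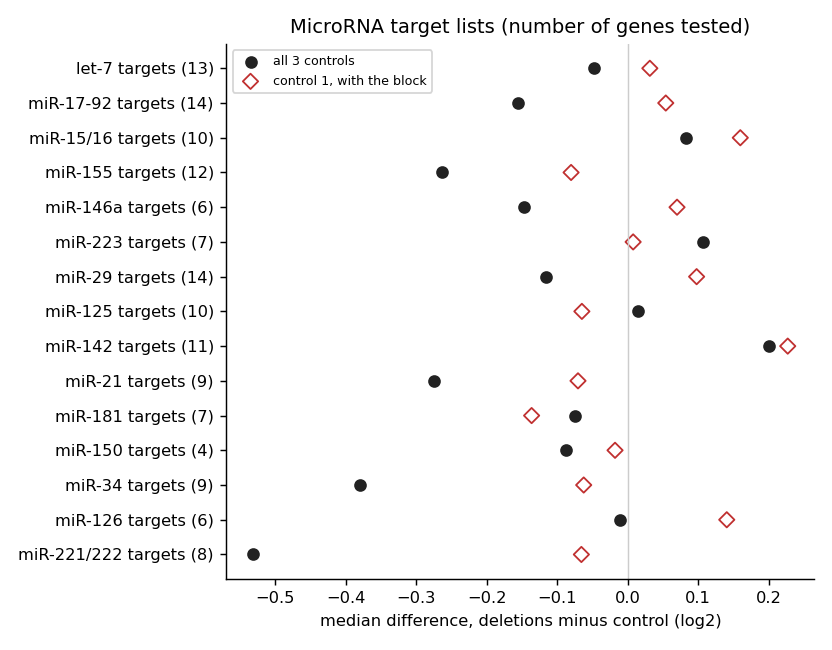
Median difference (log2, deletions minus control) of each microRNA target list, with the number of genes tested, against all 3 controls (black) and against control replicate 1 with the block (red diamonds). With all controls the list medians run from -0.53 to 0.20, and with the block from -0.14 to 0.23.

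Interferon-stimulated genes, which cells use against viruses, were lower in 28 of 29 tested genes, though none passed the adjusted threshold in limma. An unadjusted p under 0.05 was seen for 14 of the 29 (30.2% of all features), and for 17 with the block (4.88% of all features). Of all features, 50.4% were lower in deleted cells. The median of the list was -0.34 with all controls and -0.69 with the block, where 28 of 29 were again lower (47.8% of all features). All 6 deletion arrays lay below all controls for 7 of the 29, against 3.94% of all features. The genes of the list respond together to the same factors, so their signs are not independent. In bulk samples, fewer cells of a type and less RNA per cell cannot be told apart.

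Ifit1, which binds foreign RNA, had 6.38, 6.09 and 6.72 in Drosha-deleted cells and 6.61, 6.31 and 5.88 in Dicer-deleted cells, against 7.35, 7.20 and 6.84 in controls. The groups did not overlap, and the difference was -0.79 (limma adjusted p = 0.0768). Mx1, a GTPase that blocks virus growth, differed by -0.63 (adjusted p = 0.0646), Ifit2, a relative of Ifit1, by -0.51 (adjusted p = 0.0825), and Dhx58, an RNA sensor, by -0.54 (adjusted p = 0.0976). Ifit2 differed by -0.26 with the block and by 0.23 from scanner signals with normexp background. Isg15, a ubiquitin-like modifier, had 10.86, 10.63 and 10.81 in Drosha-deleted cells and 10.90, 10.55 and 10.37 in Dicer-deleted cells, against 11.88, 10.93 and 10.80 in controls, so that control replicate 1 was the high one.

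Some promoters of these genes hold a motif of the kind found in interferon response elements. A motif of 2 copies of GAAA with any 2 bases between them, searched on both strands (TTTC on the other) from 250 bases before to 50 after the gene start, with overlapping matches allowed, was in 14 of the 21 listed genes with a promoter entry, and in 3.44% of 32851 promoters. Ifit2 was among the 7 without a match, and Mx1 and Dhx58 had no promoter entry. The matches are a description and not shown to be bound. Stretches upstream of 3 genes are shown, Rsad2 and Isg15 being chosen after their values were seen, from RefSeq with build GRCm38.p6, 5′ to 3′ on the gene's strand, with matches in capitals. They lie at chr19:34640774-34640833 (plus strand, Ifit1), chr12:26456533-26456592 (minus strand, Rsad2) and chr4:156200849-156200908 (minus strand, Isg15).
Ifit1: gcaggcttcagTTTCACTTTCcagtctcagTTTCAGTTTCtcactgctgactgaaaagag
Rsad2: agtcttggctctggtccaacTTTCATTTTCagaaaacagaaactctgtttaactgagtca
Isg15: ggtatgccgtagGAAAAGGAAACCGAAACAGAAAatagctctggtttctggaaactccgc
Rsad2, an antiviral enzyme gene, had 7.45, 7.22 and 7.91 in Drosha-deleted cells and 8.12, 7.88 and 7.23 in Dicer-deleted cells, against 8.13, 8.37 and 8.21 in controls.

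Markers of monocytes and megakaryocytes were also lower in most members. Of 28 monocyte and macrophage markers, 27 were lower, with a median of -0.54, and 26 were lower with the block, with a median of -0.79. In limma 0 passed the adjusted threshold, and 11 had an unadjusted p under 0.05 (30.2% of all features), or 6 with the block (4.88% of all features). C1qa, a complement gene of macrophages, had 6.81, 6.79 and 6.26 in Drosha-deleted cells and 6.12, 5.67 and 6.91 in Dicer-deleted cells, against 7.55, 7.45 and 7.66 in controls, which is lower on all 6 arrays (difference -1.13, limma adjusted p = 0.0661). Clec4d, a C-type lectin, and Fcgr1, an antibody receptor, had their larger differences in Drosha-deleted cells, at -1.21 and -0.92 there and -0.22 and -0.09 in Dicer-deleted cells, but the deletions did not differ past the threshold (limma adjusted p = 0.113 and 0.205). The list's level differed between deletion arrays, from -0.81 to 0.52 around its mean over arrays, against 0.18 to 0.67 in controls, so the groups overlapped.

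Of 22 megakaryocyte markers, 21 were lower, with a median of -0.42, and 19 were lower with the block, with a median of -0.56. In limma 0 passed the adjusted threshold, and 11 had an unadjusted p under 0.05 (30.2% of all features). The median was -0.18 for Drosha deletion and -0.67 for Dicer deletion, a difference that was not tested. The list's level ran from -0.36 to 0.32 on the deletion arrays, against -0.05 to 0.54 in controls, so the groups overlapped. Gp6, a platelet collagen receptor, had 8.84, 8.16 and 8.86 in Drosha-deleted cells and 8.01, 7.73 and 8.01 in Dicer-deleted cells, against 9.33, 9.64 and 9.15 in controls. For this gene the groups did not overlap (difference -1.11, limma adjusted p = 0.0558). Vwf, the von Willebrand factor, differed by -0.69, Cd9, a tetraspanin, by -0.62 and Rab27b, a secretion GTPase, by -0.96 (adjusted p = 0.0741, 0.0659 and 0.0645). With the block Cd9 differed by -0.32 and Rab27b by -0.56, and from scanner values Vwf differed by 0.10 and Cd9 by 0.15, or by -0.67 and -0.54 without control replicate 2. Neutrophil markers did not share this pattern with all controls, where 14 of 21 were higher, but 20 of 21 were lower with the block.

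**Figure D5:**
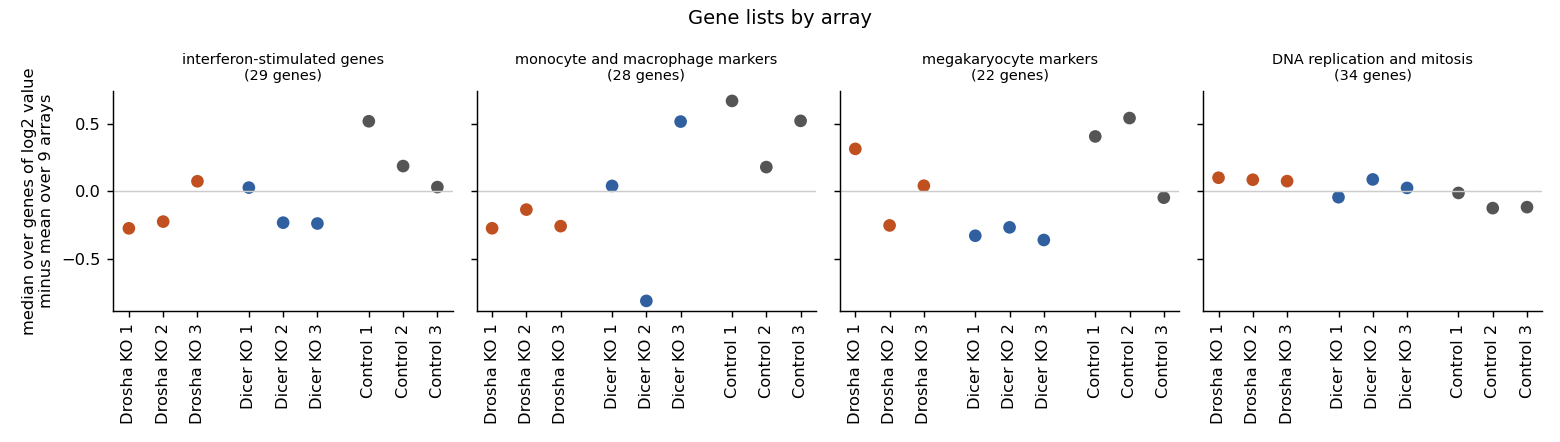
Level of 4 gene lists on each array, as the median over genes of the log2 value minus the gene's mean over the 9 arrays (Drosha-deleted, Dicer-deleted, control from left to right). The interferon-stimulated list runs from -0.27 to 0.07 on the deletion arrays and from 0.03 to 0.52 in controls, with control replicate 1 highest.

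Cell division genes were higher in most members. Of 34 genes of DNA replication and mitosis, 25 were higher in deleted cells, with a median of 0.15, and 0 passed in limma, with 12 at an unadjusted p under 0.05, or 1 with the block (30.2% and 4.88% of all features). With the block 27 of the 34 were higher, with a median of 0.06, against 0.01 over all features. Aurkb, a mitotic kinase, had 8.86, 8.98 and 9.07 in Drosha-deleted cells and 9.08, 9.01 and 8.96 in Dicer-deleted cells, against 8.93, 6.69 and 6.32 in controls. Control replicate 1 lay among the deletion arrays, and control replicates 2 and 3 were low. The difference was 1.68 with all controls (limma adjusted p = 0.0858) and 0.06 with the block. Ccne2, a cyclin of the start of replication, differed by 1.23 and by 0.20 with the block, and Cd4, a T cell co-receptor gene, by 1.44 and by 0.33.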

How the data were processed

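RNA from 9 cultures was measured on 1-colour Agilent arrays. The scanner files hold intensity, made with Agilent Feature Extraction 10.7.3.1, per the file headers. The authors' deposited series values are on a log2 scale, have near-identical quantiles from column to column, and were used as deposited. The submitters' processing notes name limma without a version; the sources used here give no further step.

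After removal of control spots, 31490 of 55681 probes passed a filter that asked for signal well above background in all 3 arrays of some group. Where a gene name had several such probes, the one brightest on average in the 9 columns stood for it, and 23052 features were tested. For control replicate 2 the filter used its scanner file, where 93.2% of spots were well above background. On the other arrays this share was 54.2% to 62.3%, so among controls the filter rested mostly on replicates 1 and 3. Names came from accessions and symbols through RefSeq for GRCm38.p6 (26413 probes by accession, 16194 by lincRNA region); positions of probes are on mm9. The comparison used limma 3.58.1 (R 4.3.3), a mean per group, equal weight for the 2 deletions and Benjamini-Hochberg adjustment over all features. Recovery was tested on simulated data with independent noise on each array. That simulation held no split among the controls, so it cannot show how the fit behaves with one. Precision is limited by there being 9 arrays.

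The comparison, members and lists were chosen with earlier results of these data known. The named genes are the called features that moved in both deletions, with the 15 largest differences each way, Drosha and Dicer1, and per list up to 4 members with the smallest adjusted p; not all are reported here, and others are said to be chosen after their values were seen. Kit, Ly6a and Mpo were named as markers of the cells. Alternatives were other fits, filters, normalizations and arrays left out. Replicate numbers did not pair the samples.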

Additional observations from a re-analysis of the deposited data

Results flagged for a closer look

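Among the 70 reported features, 4 had 1 of the 6 deletion arrays far from the rest. Chance flags about 1 in 20 groups, so this count is near what chance gives. The 6 arrays also hold both deletions. Cd9 was 15.05 on Drosha-deleted replicate 3, the highest of the 6. Nova1 was 8.55 on Dicer-deleted replicate 3, Pdpn was 5.71 on Dicer-deleted replicate 2 and Plxnb3 was 6.41 on Dicer-deleted replicate 1, the lowest of the 6 in each case.

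The deletions differed from each other for 5 reported genes (limma, adjusted over all features). The difference, Drosha deletion minus Dicer deletion, was -3.02 for Drosha, 2.20 for Aopep, 1.92 for Mir22hg, a noncoding host of miR-22, 1.69 for Cfl2 and 1.60 for Dgcr8. For the 4 positive ones the adjusted p was 0.000124, 0.0272, 0.0171 and 0.0166. In all, 13 features differed, 12 of them higher in Drosha-deleted cells, and 6 were lincRNA regions.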

How the results depend on the processing

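The counts of called features, given as higher and lower in deleted cells, moved with nearly every choice. With all 9 arrays they were 20 and 10. Leaving out 1 array in turn gave 2 to 4589 higher and 1 to 4013 lower. They were 4589 and 4013 without control replicate 1, 2 and 1 without control replicate 2, and 2 and 4 without control replicate 3. Without Drosha-deleted replicates 1, 2 or 3 they were 2 and 2, 2 and 1, or 235 and 68, and without Dicer-deleted replicates 1, 2 or 3 they were 3 and 3, 2 and 3, or 20 and 8. They were 282 and 97 with 2 groups in the fit, 4 and 6 with no filter, 16 and 5 with a strict one, and 33 and 12 with the mean of kept probes. Scanner values gave 1 and 4, or 1 and 2 without control replicate 2, and normexp background gave 0 and 0, with 2777 at an unadjusted p under 0.05. Trend and robust moderation gave 4 and 5, array weights 6064 and 6009, and centred columns 5 and 8. With the control-spot block they were 12 and 19, and without control replicates 2 and 3 they were 11 and 18. The replicate block gave 0 and 0 (6303 at an unadjusted p under 0.05); the numbers did not pair the samples, with correlations of same-numbered samples of -0.28 to 0.24. Lrmda was called under 19 of 22 alternatives, LOC100046362 under 20, Aopep under 16, Fmr1nb under 13 of 21 and Pdpn under 11 of 21. Their sizes moved too, from 0.25 to 2.86 for LOC100046362 and from 0.57 to 2.08 for Aopep. The difference ran from -2.285 to -1.33 for Lrmda, from -3.66 to -0.95 for Fmr1nb and from -2.355 to -0.67 for Pdpn. Of 70 features recomputed, 8 changed sign under normexp background. The called ones were Nova1, to -0.38, and Rap1gap, to 0.12, and the others were Cd14, Clec9a, Fos, Ifit2, Ly6a and Slamf1. From scanner values 5 changed sign, Cd14, Cd9, Myc, Slamf1 and Vwf, but without control replicate 2 only Ly6a did. Both normexp background and scanner values used the scanner file of control replicate 2, which stood apart in signal and spot quality. With the control-spot block Ly6a and Myc changed sign. The causes were not tested. Fmr1nb shows the limit of dim probes, being above background on 0 deletion arrays.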

Other observations

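Among other lists, lysosome genes were lower in 17 of 22 tested, with a median of -0.20. With the block 21 of 22 were lower, with a median of -0.34. Of the 22, 0 passed the adjusted threshold in limma, and 10 had an unadjusted p under 0.05 (30.2% of all features). Maf, a transcription factor gene on the miR-155 list, had log2 values of 5.76, 5.57 and 5.88 in Drosha-deleted cells and 5.71, 5.71 and 6.10 in Dicer-deleted cells, against 6.41, 7.09 and 7.17 in controls, and its difference of -1.10 had an adjusted p of 0.0558. Of 33 stem cell genes, 11 were higher in deleted cells, with a median of -0.12, and 17 were higher with the block, with a median of 0.02. In limma 0 passed the adjusted threshold, with 9 at an unadjusted p under 0.05 (30.2% of all features). Prdm16, a regulator of stem cell upkeep, differed by -1.02 (adjusted p = 0.0741), and Slamf1, a marker of long-lived stem cells, by -0.70 (adjusted p = 0.0934). With the block they differed by -0.57 and -0.58, and Slamf1 differed by 0.30 from scanner signals with normexp background. Maf differed by -0.62 with the block.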
